A study of Mus musculus with 20 samples.

Results

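The circadian clock genes Per1, Per2, Per3, Cry1, Cry2, Nr1d1, Nr1d2, Arntl and Dbp, together with the related gene Bhlhe40, were followed in T effector cells of the mouse spleen that carried or lacked Pcbp2, an RNA-binding protein. The 10 genes were taken by symbol, of 49315 gene IDs in the authors' count table, and all 10 were abundant enough to be tested. The cells were CD4+CD25- splenocytes isolated by flow sorting, over 99% pure per the labels. CKO libraries came from mice with a floxed Pcbp2 gene and Cre recombinase driven by the Cd4 promoter (Fl-Pcbp2/CD4cre), which acts in developing T cells, and CTL libraries came from Fl-Pcbp2 littermates. Both genotypes thus carry the floxed gene, and the labels tie no library to a single animal, so p-values measure the spread between these libraries. Unstimulated cells (0 h) gave 6 libraries per genotype. Cells cultured for 6 h with CD3/CD28 activator beads, which trigger the antigen receptor and its costimulatory receptor, gave 5 CTL libraries and 3 CKO libraries. The sources used here do not give the hour of the day at which cells were taken, and no culture of 6 h without beads was analysed, so the stimulus, the culture and 6 h of elapsed time cannot be told apart.

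Arntl (also called Bmal1) pairs with Clock or Npas2 in a transcription factor that binds E-boxes in the genes of its own repressors, the Per and Cry proteins, and closes the daily feedback loop of the clock. Nr1d1 and Nr1d2 (REV-ERBα and REV-ERBβ) are nuclear receptors that repress Arntl through elements shared with the ROR receptors, and Dbp is a D-box activator that is itself an E-box target and a common readout of clock output. Bhlhe40 (Dec1) is a basic helix-loop-helix repressor that competes for E-boxes; in T cells it is known as a gene raised by antigen receptor signals and as a regulator of cytokine production.

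The promoters show which of these elements lie close to the members' start sites. RefSeq promoter windows of GRCm38.p6, from 250 bases before to 50 bases after an annotated start, were present for 8 members, with 10 windows in all. Per2 and Bhlhe40 had none. Both strands were searched for the E-box CACGTG, the E′ box CACGTT, the D-box TTANGTAA, the ROR/REV-ERB element, of which Arntl holds a match, and the cAMP response element TGACGTCA. The 250 bases upstream of 5 members are printed: Per1, Cry1, Nr1d1 and Per3 to show matches of the E-box, the E′ box and the D-box, and Dbp because it fell furthest over 6 h and holds no match. Each runs 5′ to 3′ on the strand named, capitals mark the matches, and AACGTG is the E′ box read on the other strand.

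Per1, chr11:69098699-69098948, plus strand: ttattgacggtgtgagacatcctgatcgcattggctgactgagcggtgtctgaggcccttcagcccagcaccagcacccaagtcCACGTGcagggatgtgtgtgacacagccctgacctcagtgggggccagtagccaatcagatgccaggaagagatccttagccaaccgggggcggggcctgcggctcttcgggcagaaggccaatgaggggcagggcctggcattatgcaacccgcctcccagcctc

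Cry1, chr10:85185055-85185304, minus strand: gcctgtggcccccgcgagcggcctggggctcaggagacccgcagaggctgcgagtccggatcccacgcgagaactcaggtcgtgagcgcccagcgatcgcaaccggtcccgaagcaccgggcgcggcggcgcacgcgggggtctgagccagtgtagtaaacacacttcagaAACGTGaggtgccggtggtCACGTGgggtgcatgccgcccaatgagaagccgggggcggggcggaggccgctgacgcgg

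Nr1d1, chr11:98775378-98775627, minus strand: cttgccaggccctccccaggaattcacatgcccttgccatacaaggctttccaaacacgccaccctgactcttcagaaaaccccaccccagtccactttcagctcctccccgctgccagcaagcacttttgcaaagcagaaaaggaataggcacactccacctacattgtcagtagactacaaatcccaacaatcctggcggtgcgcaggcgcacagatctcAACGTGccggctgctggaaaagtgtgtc

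Dbp, chr7:45704997-45705246, plus strand: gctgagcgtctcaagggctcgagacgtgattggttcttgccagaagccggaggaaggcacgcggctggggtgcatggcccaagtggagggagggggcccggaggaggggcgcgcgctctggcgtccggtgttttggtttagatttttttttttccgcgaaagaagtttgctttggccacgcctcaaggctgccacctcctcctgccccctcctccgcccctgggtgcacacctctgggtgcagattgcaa

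Per3, chr4:151044666-151044915, minus strand: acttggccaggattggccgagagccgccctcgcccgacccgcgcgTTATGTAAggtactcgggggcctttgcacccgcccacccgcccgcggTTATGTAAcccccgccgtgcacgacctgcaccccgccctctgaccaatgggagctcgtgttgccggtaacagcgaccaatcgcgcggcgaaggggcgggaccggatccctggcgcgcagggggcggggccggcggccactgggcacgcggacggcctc

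The ROR/REV-ERB element of Arntl lies 27 bases into the transcript of its second window, where the nuclear receptors are known to act, and is shown with its flanks in 30 bases.

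Arntl, chr7:113207528-113207557, plus strand: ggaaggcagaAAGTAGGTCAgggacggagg

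An E-box was found in 2 of the 8 members with a window, Per1 and Cry1, and in 7.15% of all 32851 promoters searched. E′ boxes occurred in 3 members, Cry1, Cry2 and Nr1d1, and in 4.68% of all promoters. Per3 held 2 D-boxes, an element present in 2.32% of promoters, and the element of Arntl was present in 0.219%. The cAMP response element, present in 1.79% of promoters, had no match in these windows, and Dbp and Nr1d2 held none of the 5 elements. These are matches of letters in short windows, not measured binding.

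Levels are CPM, counts relative to the library size after TMM scaling, a normalisation that assumes most genes do not change. Total counts were 26.4 M in the CTL library 4.24 at 6 h and 62.4 M to 85.6 M in the other 19 libraries; the decimals are the numbers in the library titles. The members had between 75 and 15533 counts per library. Pcbp2, the deleted gene, lay at 261 to 396 CPM in CTL and at 7.27 to 22.1 CPM in CKO, so each library matched its genotype label. At 0 h the labels give male for every CKO library and female for the CTL libraries 4.24, 5.6 and 10.28, so labelled sex and genotype partly coincide. At 6 h they give female for CTL 4.24, CTL 10.28 and CKO 5.6. In 2 unstimulated CKO libraries, 4.24 and 5.6, Xist disagreed with the label. It read 1160 and 1353 CPM there, with the Y-linked Ddx3y at 0.284 and 0.117 CPM. The fit reported keeps the labelled sex. Results were also computed without these 2 libraries and with the sex read from Xist. The summed level of 5 T cell markers (Cd3e, Cd3g, Cd4, Trac and Cd28) ranged from 2660 to 3703 CPM at 0 h and from 1371 to 1943 CPM at 6 h. The sums of 5 B cell markers ran from 28.7 to 239 CPM at 0 h and from 12.1 to 71.4 CPM at 6 h, and those of 6 myeloid markers from 24.2 to 94.7 CPM and from 2.69 to 14.4 CPM. Sums of 5 stromal markers (Col1a1, Col1a2, Pdgfrb, Pecam1 and Cdh5) were higher, from 231 to 339 CPM at 0 h and from 175 to 355 CPM at 6 h. Over 6 h in CTL, 3 of these 5 genes were called higher and 1 lower, while the median sum went from 262 to 207 CPM. The stromal sum thus does not follow most of its genes and is not read as a share of stromal cells. Sums of 5 dendritic markers reached 144 CPM and sums of 5 cytotoxic and NK markers 164 CPM, both at 0 h. No gene of these lists was at 0 throughout a group. In such bulk libraries, fewer cells of a type and less RNA per cell cannot be told apart.

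**Figure D1:**
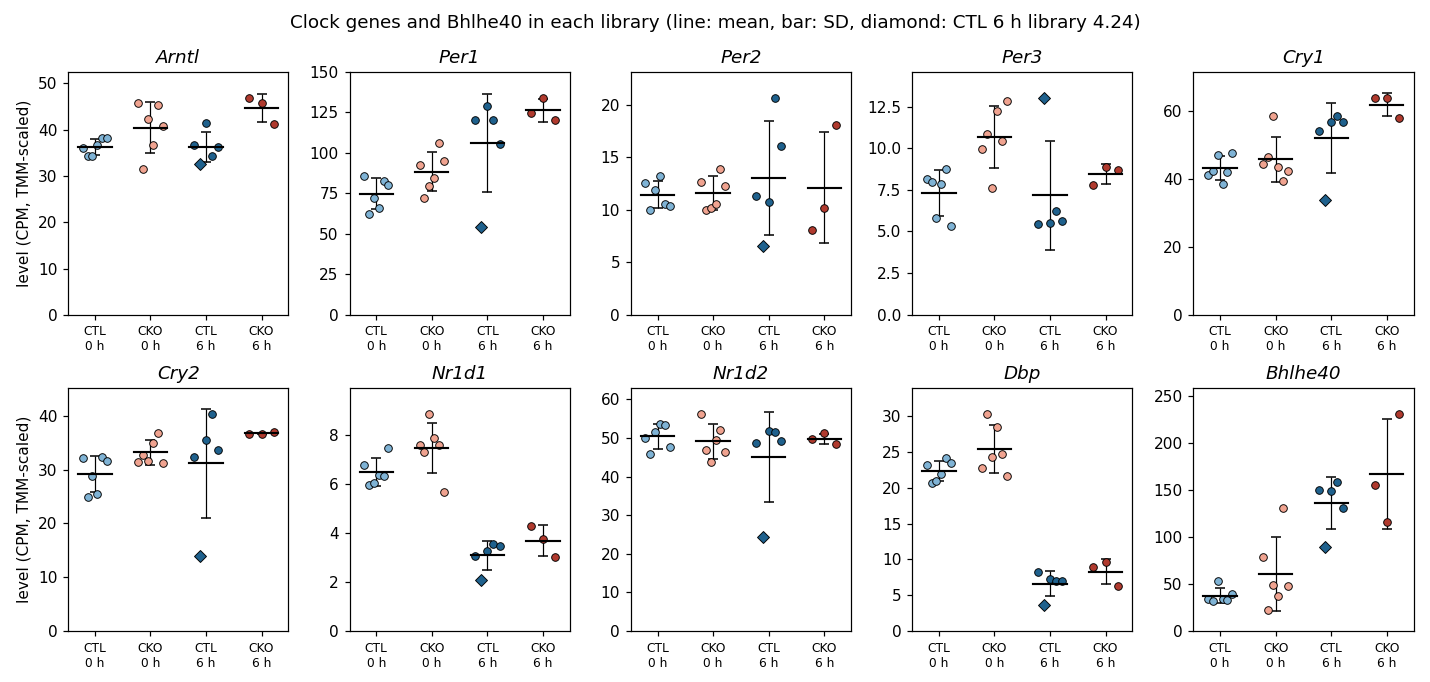
Level of each of the 10 genes in CPM, with 1 point per library in the 4 groups, the group mean as a line and the SD as a bar; diamonds mark the CTL library 4.24 at 6 h. Dbp and Nr1d1 lie lower at 6 h than at 0 h in both genotypes without overlap, Bhlhe40 lies higher with an overlap in CKO, and the diamond stands apart for several genes.

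Among unstimulated cells, the transcripts of the Per1 and Cry1 repressors were present at the highest mean level per length and Per3 at the lowest. In CTL, the mean CPM per kb of exon was 13.3 ± 1.71 (SD, n = 6) for Per1 and 12.9 ± 1.07 for Cry1, and their ranges overlapped. Nr1d2 followed at 9.31 ± 0.59, Bhlhe40 at 7.99 ± 1.70 and Dbp at 7.48 ± 0.48, and the neighbours among these overlapped. Arntl (4.83 ± 0.23) and Cry2 (4.62 ± 0.53) formed the next level with overlapping ranges, below Dbp without overlap. Nr1d1 (2.10 ± 0.18) and Per2 (1.95 ± 0.22) came next and overlapped each other, and Per3 was at 0.76 ± 0.15, below Per2 without overlap. The order in CKO was the same except that Bhlhe40, at 12.9 ± 8.29 CPM per kb, came before Nr1d2, and its range overlapped that of both neighbours.

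After 6 h the order of levels had a different head. In CTL at 6 h, Bhlhe40 had the highest mean, 28.9 ± 5.85 CPM per kb (n = 5), and its range overlapped that of Per1 at 18.8 ± 5.34. In CKO at 6 h, Bhlhe40 was at 35.6 ± 12.4 (n = 3), above Per1 at 22.4 ± 1.24 without overlap, and Per1, Cry1, Nr1d2 and Arntl followed one another with no overlap of neighbours. Dbp, above Arntl and Cry2 at 0 h in both genotypes, lay below both at 6 h and next to Per2, with which its range overlapped.

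The question of the first comparison was which genes differ between cells at 0 h and cells after 6 h with CD3/CD28 beads. In CTL, 2 of the 10 genes rose (Per1 and Bhlhe40), 2 fell (Dbp and Nr1d1) and 6 did not pass the test, edgeR's quasi-likelihood test with p adjusted by Benjamini and Hochberg over 28082 genes at 0.05. The background is high: 63.4% of all tested genes were called in this comparison (41.6% higher and 21.7% lower), so the share of members called was below it. The median log2 change was 0.02 over the members, 0.31 over all tested genes and −0.20 over the 14189 genes with a mean of at least 1 CPM. In CKO, 3 rose (Per1, Cry1 and Bhlhe40), 2 fell (again Dbp and Nr1d1) and 5 did not pass, against 32.8% of all tested genes called (19.6% higher and 13.1% lower). The median was 0.14 over the members, 0.12 over all tested genes and −0.12 over those with a mean of at least 1 CPM.

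Dbp, the clock output activator, fell furthest of the members. In CTL it read 23.5, 20.6, 23.2, 20.9, 22 and 24.1 CPM at 0 h (libraries 10.28, 4.24, 4.29, 5.13, 5.6 and 9.20) and 6.96, 3.62, 8.21, 7.24 and 6.99 CPM at 6 h (10.28, 4.24, 4.29, 5.13 and 9.20). In CKO it read 21.7, 30.3, 22.8, 24.3, 28.5 and 24.7 CPM at 0 h (libraries 11.18, 4.24, 4.29, 5.13, 5.6 and 9.20) and 6.35, 8.94 and 9.65 CPM at 6 h (11.18, 5.13 and 5.6). Every 6 h library thus lay below every 0 h library of either genotype, and the library lowest of all was CTL 4.24. The log2 change was −1.78 ± 0.16 (SE) in CTL (edgeR, adjusted p = 8.2e-08), which is 3.42-fold lower, and −1.56 ± 0.20 in CKO (edgeR, adjusted p = 1.5e-05), 2.96-fold lower. Libraries of the same number gave a fall in 5 of 5 CTL pairs, by 1.49 to 2.51 on the log2 scale, and in 3 of 3 CKO pairs, by 1.44 to 1.77.

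Nr1d1, the REV-ERBα receptor, fell to about the same extent in both genotypes. Its CTL levels were 7.45, 5.93, 6.77, 6.02, 6.34 and 6.32 CPM at 0 h and 3.45, 2.09, 3.06, 3.27 and 3.53 CPM at 6 h, in the library order given for Dbp. Its CKO levels were 5.68, 7.30, 7.57, 8.83, 7.85 and 7.56 CPM at 0 h and 3.00, 4.27 and 3.76 CPM at 6 h. The 0 h and 6 h ranges did not overlap in either genotype. The log2 change was −1.08 ± 0.15 in CTL (edgeR, adjusted p = 1.5e-05) and −1.0 ± 0.19 in CKO (edgeR, adjusted p = 0.00066), and all 8 same-number pairs fell. Its paralogue Nr1d2, at 45.8 to 53.7 CPM in CTL at 0 h, showed a log2 change of −0.19 ± 0.13 in CTL and 0.08 ± 0.16 in CKO and did not pass the test in either. At 6 h Nr1d2 lay at 48.5 to 51.9 CPM in 7 libraries and at 24.4 CPM in CTL 4.24.

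Bhlhe40, the E-box repressor, rose 3.48-fold in CTL and 2.95-fold in CKO. CTL levels were 39.7, 31.9, 34.0, 52.9, 34.3 and 32.8 CPM at 0 h and 131, 90.0, 151, 150 and 158 CPM at 6 h, with no overlap. CKO levels were 48.0, 22, 78.4, 48.6, 37.0 and 131 CPM at 0 h and 231, 155 and 116 CPM at 6 h. The ranges overlapped in CKO because the 0 h library 9.20 lay above the lowest 6 h library. The log2 change was 1.80 ± 0.31 in CTL (edgeR, adjusted p = 8.3e-05) and 1.56 ± 0.35 in CKO (edgeR, adjusted p = 0.0027), and it was positive in all 8 same-number pairs (1.49 to 2.27 in CTL and 1.65 to 2.27 in CKO). With only the CKO groups in the fit, the change was 1.62 and no longer passed (edgeR, adjusted p = 0.0573).

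The cytokine genes Csf2, Ifng and Il10 of activated T cells were set beside Bhlhe40. Csf2, which encodes GM-CSF, rose in CTL by 3.95 ± 0.48 on the log2 scale and by 4.34 ± 0.52 in CKO. Ifng changed by 2.10 and 1.76 and Il10 by 2.07 and 1.52, and all of these passed the test. No difference between the genotypes passed for the 3 cytokine genes at either time.

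**Figure D2:**
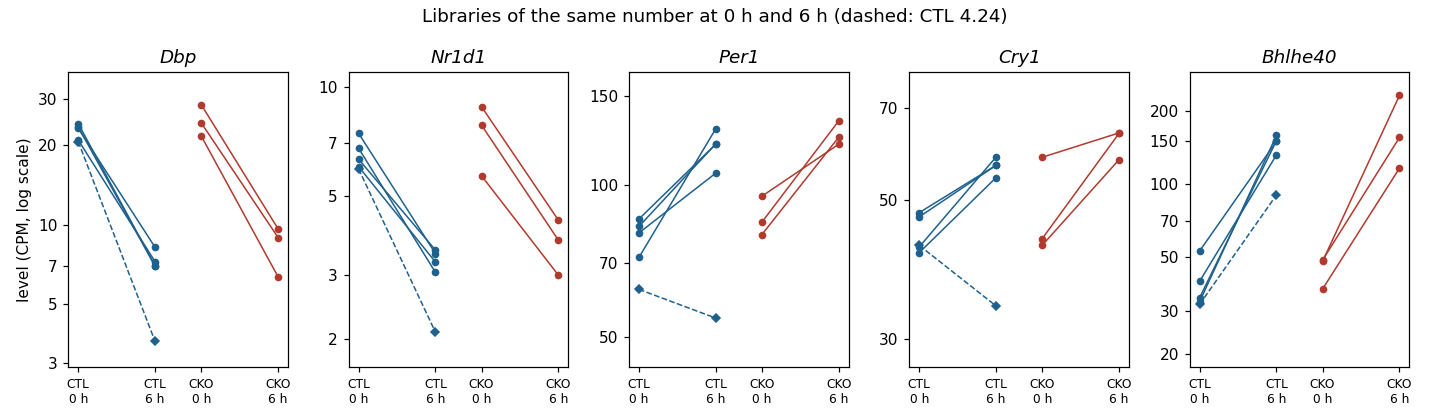
Level in CPM on a log scale at 0 h and 6 h, with a line joining libraries of the same number within a genotype; the dashed line is CTL 4.24. All 8 lines of Dbp and of Nr1d1 go down and all 8 of Bhlhe40 go up, while Per1 and Cry1 go up in 7 of 8, the exception being the dashed line.

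Among the repressors of the loop, Per1 rose to a smaller degree. In CTL it read 80.3, 62.1, 85.6, 71.8, 65.7 and 82.7 CPM at 0 h and 106, 54.5, 120, 129 and 121 CPM at 6 h, and in CKO 95.0, 72.3, 92.7, 79.8, 84.4 and 106 CPM at 0 h and 120, 124 and 134 CPM at 6 h. The 6 h range lay above the 0 h range in CKO; in CTL the library 4.24 was the lowest of both times and the other 6 h libraries were above all 0 h libraries. The log2 change was 0.46 ± 0.15 in CTL (edgeR, adjusted p = 0.012) and 0.62 ± 0.18 in CKO (edgeR, adjusted p = 0.013). Cry1, which represses the Arntl complex directly, read 38.3 to 47.7 CPM at 0 h and 56.7, 33.9, 54.2, 56.7 and 58.4 CPM at 6 h in CTL, with a log2 change of 0.26 ± 0.12 that did not pass (edgeR, adjusted p = 0.074). In CKO, Cry1 read 39.5 to 58.4 CPM at 0 h and 57.9, 63.8 and 63.7 CPM at 6 h, and the change of 0.47 ± 0.14 passed (edgeR, adjusted p = 0.018).

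The other repressors did not pass the test in either genotype. Cry2 had log2 changes of 0.05 ± 0.16 in CTL and 0.25 ± 0.19 in CKO. Per2 had 0.16 ± 0.22 and 0.13 ± 0.27. Its coefficient of variation was 41.6% in CTL and 43.7% in CKO at 6 h, against 11.3% and 13.7% at 0 h. At 6 h Per2 read 16.0, 6.54, 11.3, 10.7 and 20.7 CPM in CTL and 18.1, 8.06 and 10.2 CPM in CKO, in the library order given for Dbp. Same-number log2 differences were 0.56 to 0.96 for CTL 9.20, CTL 10.28 and CKO 11.18. They were −0.61 to −0.05 for the other pairs. What goes with this split by number was not tested. Per3 had −0.04 ± 0.21 and −0.41 ± 0.25. Arntl, the activator of the loop, read 34.3 to 38.3 CPM at 0 h and 32.5 to 41.4 CPM at 6 h in CTL, a log2 change of −0.01 ± 0.09, and 31.4 to 45.8 and 41.3 to 46.9 CPM in CKO, a change of 0.15 ± 0.11. With only genes of a mean CPM of at least 1 in the fit, which moved the median of those genes by 0.21 in CTL, Arntl stood at 0.21 in CTL (edgeR, adjusted p = 0.0333) and at 0.25 in CKO (edgeR, adjusted p = 0.0455), both past the threshold.

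The CTL library 4.24 at 6 h, the shallowest, bears on the smaller changes. It gave the lowest 6 h CTL level of Per1, Per2, Cry1, Cry2, Nr1d1, Nr1d2, Dbp, Bhlhe40 and Arntl, and the highest of Per3, 13 CPM against 5.46 to 6.25 CPM in the other 4. Without it, 6 of the 10 genes were called in CTL, against 58.2% of 26737 genes tested. Per1 then rose by 0.65 ± 0.10, Cry1 by 0.40 ± 0.09 (edgeR, adjusted p = 0.00132) and Cry2 by 0.26 ± 0.08 (edgeR, adjusted p = 0.0125), and the changes of Nr1d2 and Per3 were 0.00 and −0.35. Dbp at −1.59, Nr1d1 at −0.94 and Bhlhe40 at 1.91 remained called. In CKO the same 5 genes were called, against 45.0% of the genes tested. The calls of Per1 and Cry1 also depended on which other libraries were in the fit. Without the CKO 0 h libraries 4.24 and 5.6, Per1 stood at 0.37 in CTL (edgeR, adjusted p = 0.0817) and 0.50 in CKO (edgeR, adjusted p = 0.107), and Cry1 at 0.42 in CKO (edgeR, adjusted p = 0.0965), which left Dbp, Nr1d1 and Bhlhe40 called in both genotypes. Leaving out any 1 of the CKO libraries 4.29, 5.6 and 9.20 or the CTL libraries 5.6 and 9.20 at 0 h put Per1 in CTL at 0.37 to 0.38, with edgeR adjusted p up to 0.0835. The CKO libraries enter the CTL comparison only through the scaling, the sex term and the shared spread. In the same fits the median CTL change of genes with a mean of at least 1 CPM was −0.30 to −0.27. It was −0.20 with all 20 libraries, and −0.30 without the CKO 0 h libraries 4.24 and 5.6. The part of this shift in the move of Per1 was not tested. In CKO, Per1 was not called without the library 5.6 at 0 h (0.56, edgeR adjusted p = 0.0624) or at 6 h (0.46, edgeR adjusted p = 0.0715). Cry1 in CKO was not called without any 1 of the CKO libraries 4.29, 5.6 and 9.20 at 0 h, the CTL library 5.6 at 0 h, or the CKO libraries 5.13 and 5.6 at 6 h, with values of 0.39 to 0.46 and edgeR adjusted p up to 0.099. Cry1 in CTL was called with only genes of a mean CPM of at least 1 (0.46, edgeR adjusted p = 0.000559), with RLE factors (0.34, edgeR adjusted p = 0.0183), by DESeq2 (0.34, adjusted p = 0.0126) and without the CTL library 10.28 at 0 h (0.30).

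**Figure D3:**
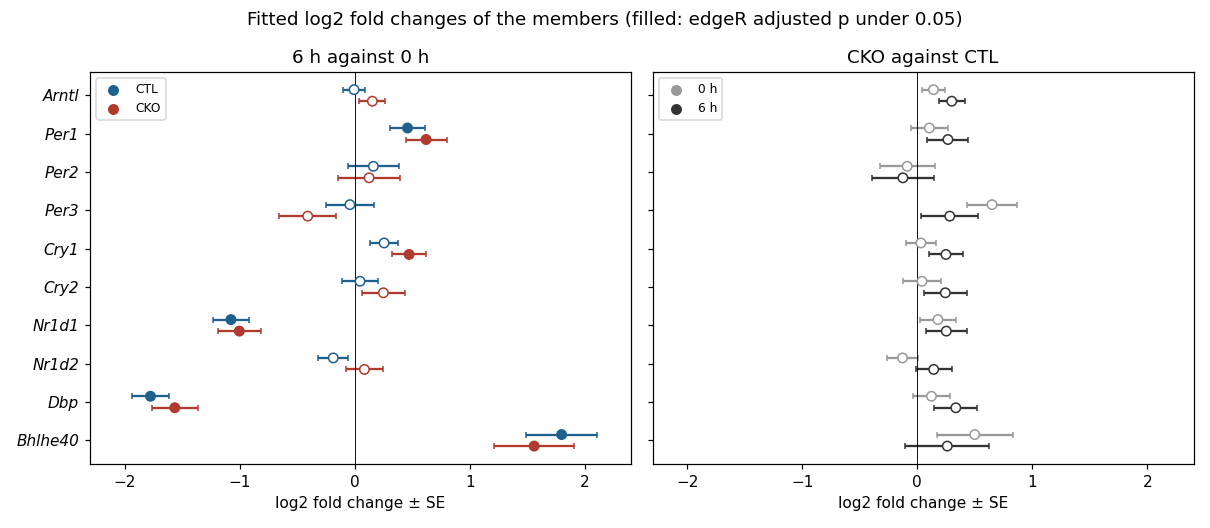
Fitted log2 fold changes of the 10 genes with their standard errors, for 6 h against 0 h in each genotype and for CKO against CTL at each time; filled points have an adjusted p under 0.05. The time comparisons show called changes of both signs for 4 genes in CTL and 5 in CKO, and the genotype comparisons show none.

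Several members share bases with another gene in the annotation, and the strand setting of the counting is not given in the sources used here. Dbp shares 539 exon bases, 18% of its exon sequence, with Sphk2 on the other strand. Sphk2, a sphingosine kinase gene, changed by −0.29 ± 0.12 in CTL and had 0.10 ± 0.14 in CKO, which did not pass. The part of shared reads in the values of Dbp was not tested. Nr1d1 shares 263 bases (8.55%) with Thra, the thyroid hormone receptor gene on the other strand, and Thra fell by 0.96 ± 0.18 on the log2 scale in CTL (edgeR, adjusted p = 0.000139) and had −0.54 ± 0.21 in CKO (edgeR, adjusted p = 0.0602). For Nr1d1, too, the part of shared reads was not tested. Bhlhe40 shares 118 bases (2.51%) with the antisense transcript 0610040F04Rik, whose mean in CTL was 0.0705 CPM at 0 h and 1.55 CPM at 6 h, far below Bhlhe40. Cry2 shares 295 bases (4.67%) with D930015M05Rik and Arntl 33 (0.439%) with Gm45355, neither of which passed the test. Per3 lies within the span of Camta1 on the same strand with 0 exon bases in common.

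The question of the next comparison was whether loss of Pcbp2 changes these genes. None of the 10 genes passed edgeR's test at 0 h, where 0.424% of all tested genes were called (0.231% higher and 0.192% lower), nor at 6 h, where 0.292% were (0.253% higher and 0.0392% lower); 1 gene at each time had an unadjusted p under 0.05, and DESeq2 called 0 members at both times. At such backgrounds, 0 calls among 10 genes is no result about the members. The gene with an unadjusted p under 0.05 at 0 h was Per3, a paralogue of Per1 and Per2. It read 5.31, 8.0, 8.14, 5.80, 7.86 and 8.76 CPM in CTL and 12.9, 10.8, 9.97, 7.63, 12.3 and 10.4 CPM in CKO, with overlapping ranges because of the CKO library 5.13. Its log2 difference was 0.65 ± 0.21 (edgeR, adjusted p = 0.31), and CKO was higher in 5 of 5 same-number pairs, by 0.25 to 0.64. At 6 h Per3 differed by 0.28 ± 0.25, or by 0.57 ± 0.18 without the CTL library 4.24 (edgeR, adjusted p = 0.241).

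The gene with an unadjusted p under 0.05 at 6 h was Arntl, at 36.4, 32.5, 36.7, 41.4 and 34.4 CPM in CTL and 41.3, 46.9 and 45.8 CPM in CKO. The lowest CKO library lay just below the highest CTL library, and the log2 difference was 0.30 ± 0.11 (edgeR, adjusted p = 0.35). At 0 h Arntl differed by 0.14 ± 0.10. Per1 and Nr1d1 were higher in CKO in all 5 same-number pairs at 0 h, by 0.11 to 0.36 and by 0.16 to 0.55, with fitted differences of 0.10 ± 0.16 and 0.18 ± 0.16 that did not pass. Dbp differed by 0.12 ± 0.16 at 0 h and by 0.33 ± 0.19 at 6 h, and Per2 by −0.09 ± 0.24 and −0.13 ± 0.27. The fitted difference was positive for 8 of 10 genes at 0 h and for 9 of 10 at 6 h. The medians were 0.11 and 0.26, against 0.05 and −0.29 over all tested genes. Over the genes with a mean of at least 1 CPM, among which all members fall, the medians were −0.007 and 0.07. Without the CTL library 4.24 at 6 h, the median of the members at 6 h was 0.13 and 8 were positive.

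Bhlhe40 was the most variable of the members between unstimulated CKO libraries. Its coefficient of variation was 64.1% in CKO and 21.2% in CTL at 0 h, and the fitted difference of 0.50 ± 0.33 did not pass (edgeR, adjusted p = 0.82). It rested largely on the CKO library 9.20, without which it was 0.12 ± 0.27, and it was 0.76 with the library number as a block and 0.82 without the CKO libraries 4.24 and 5.6, none of which passed. CKO exceeded CTL in 3 of 5 same-number pairs, with log2 differences from −0.53 to 2.00. Markers of regulatory T cells moved with it in CKO: the summed level of Foxp3, Ikzf2, Gpr83, Il2ra and Ctla4 was 702, 674, 425, 422, 408 and 226 CPM in the CKO libraries 4.29, 9.20, 5.13, 5.6, 11.18 and 4.24, where Bhlhe40 read 78.4, 131, 48.6, 37.0, 48.0 and 22 CPM. The CKO libraries with the 2 highest sums also had the 2 highest levels of Bhlhe40, and the library with the lowest sum had the lowest. In CTL at 0 h they did not run together: the sum was highest in library 4.24, at 310 CPM, where Bhlhe40 was lowest, at 31.9 CPM, and lowest in 10.28, at 164 CPM, where Bhlhe40 read 39.7 CPM. The sort for CD25- cells would remove most cells with CD25, the protein of Il2ra, on their surface; Il2ra itself had a mean of 16.2 CPM in CTL and 23.5 CPM in CKO at 0 h. None of the 5 markers was at 0 throughout a group; Gpr83 was higher in CKO at both times and Foxp3 at 6 h by the same test, and the part of such cells in the level of Bhlhe40 was not tested.

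**Figure D4:**
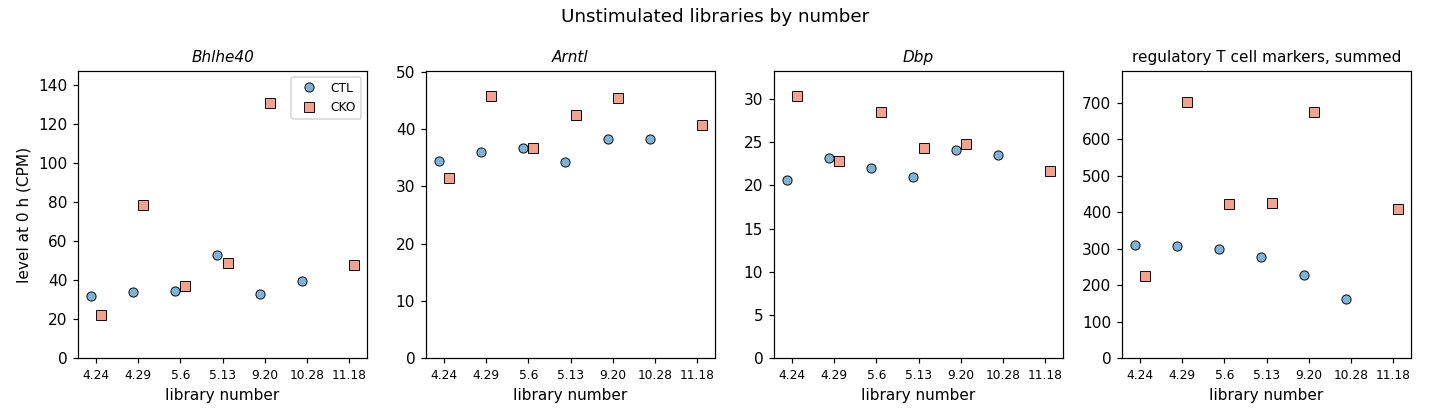
Level at 0 h in CPM by library number, with CTL as circles and CKO as squares, for Bhlhe40, Arntl and Dbp and for the 5 regulatory T cell markers summed. Bhlhe40 and the marker sum are both high in the CKO libraries 4.29 and 9.20 and both low in 4.24, where Dbp is at its highest, 30.3 CPM, and Arntl at its lowest, 31.4 CPM.

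The last comparison asked whether the response over 6 h differs between the genotypes. None of the 10 genes passed, and neither did any of the 28082 genes tested (percent called 0; DESeq2 also called 0). At an unadjusted p under 0.05, 0 of the 10 members and 2725 of all genes (9.70%) were found. The difference of responses was 0.21 ± 0.25 for Dbp, 0.07 ± 0.24 for Nr1d1, −0.24 ± 0.48 for Bhlhe40, 0.16 ± 0.24 for Per1 and 0.22 ± 0.19 for Cry1. Cry1 thus passed in CKO and not in CTL without a detected difference between the 2 responses (edgeR, adjusted p = 0.554). For Dbp, Nr1d1, Per1 and Bhlhe40 the direction turned when 1 library was left out. Without the CTL library 4.24 at 6 h they were −0.03 for Dbp, −0.10 for Nr1d1, −0.08 for Per1 and 0.04 for Cry1, and the median over the members was −0.05 with 4 positive, against 0.16 with 7 positive in the fit of all libraries. Without the CKO library 9.20 at 0 h, the difference was 0.18 for Bhlhe40. The standard errors of 0.15 to 0.48 over the members leave room for differences of that order.

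Whether the members varied together among unstimulated libraries was described by the correlation of each with Arntl over the 6 libraries of a genotype, in log2 CPM, which makes 18 relations. None passed after adjustment by Benjamini and Hochberg. For Dbp, Pearson's r was 0.91 in CTL (exact two-sided permutation p = 0.025, adjusted p = 0.225; Spearman's rho 0.89, exact permutation p = 0.0333) and −0.82 in CKO (exact permutation p = 0.0431, adjusted p = 0.258; rho −0.60, exact permutation p = 0.242). Without the 2 libraries farthest from the median of Arntl, r was 0.62 in CTL and 0.50 in CKO, so the negative value in CKO rests on those libraries. In CKO these were 4.24 and 5.6, the libraries whose Xist level disagreed with the labelled sex. The part of sex in this relation was not tested. For Bhlhe40, r was 0.91 in CKO (exact permutation p = 0.0111, adjusted p = 0.2; rho 0.94, exact permutation p = 0.0167), and 0.84 without the 2 farthest, against −0.33 in CTL (exact permutation p = 0.604; rho −0.20). The difference between genotypes was not tested. The deviations of the 10 genes from their group means, compared between a CTL and a CKO library of the same number, correlated at −0.58 to 0.39 (median 0.18, 5 pairs), and at a median of 0.02 over 31 pairs of different numbers.

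The genes whose levels ran most like Dbp over the 12 unstimulated libraries, after subtraction of the group means of log2 CPM, were Srsf12 (r = 0.93), Thra (0.93), Timeless (0.92) and Capn3 (0.91), of 13637 genes compared. The members themselves lay between −0.57 (Bhlhe40) and 0.50 (Cry2) by this measure. For Bhlhe40 over all 20 libraries, the closest of 14179 genes were Odc1 (0.91), Stx11 (0.91), Baz1a (0.91) and Gem (0.90), and the closest member was Arntl (0.64). These are the top values of many comparisons and carry no test.

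Beyond the 10 members, 28 further genes of the clock and its control were followed by role, and all were tested. Over 6 h, 12 rose and 7 fell in CTL, and 5 rose and 1 fell in CKO, against the 63.4% and 32.8% of all genes given above; their median log2 changes were 0.18 and 0.16. Among the outputs, Nampt, which makes the NAD+ precursor NMN, changed from a mean of 46.2 to 114 CPM in CTL, with a log2 change of 1.29 ± 0.13 in CTL (edgeR, adjusted p = 2.3e-07) and of 1.27 ± 0.15 in CKO. Wee1, a kinase that holds back mitosis, rose by 1.09 ± 0.17 in CTL and had 0.24 ± 0.20 in CKO, which did not pass. Ciart (Chrono), a repressor of the Arntl complex, rose by 1.70 ± 0.25 and 1.32 ± 0.28, from a mean of 3.86 to 12.4 CPM in CTL. Csnk1e, a kinase that marks Per proteins for degradation, rose by 0.59 ± 0.10 in CTL and by 0.73 ± 0.12 in CKO.

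The genes that fell in CTL with the smallest adjusted p were among the kinases and partners, and Cipc. Gsk3b, a kinase of several clock proteins, fell by 0.64 ± 0.12, and Timeless, a replication fork protein, fell by 0.71 ± 0.16. Cipc, an inhibitor of Clock, fell by 0.45 ± 0.11 and Nono, an RNA-binding partner of Per proteins, by 0.39 ± 0.12. None of these 4 passed in CKO in this fit; without the CTL library 4.24 at 6 h, Cipc did, at −0.38 ± 0.08 (edgeR, adjusted p = 0.00093). No difference of response between genotypes was called for them. Clock itself, the partner of Arntl, fell by 0.28 in CTL.

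The CTL library 4.24 at 6 h also stands apart for the scarce genes of this list. Rorb, a ROR receptor, read 13 CPM there and 0.59 to 2.14 CPM in the other 4 libraries, and Arntl2, a paralogue of Arntl, 8.07 CPM against 1.05 to 1.83 CPM. Bhlhe41, the paralogue of Bhlhe40, read 6.98 CPM there and 0.76 to 1.10 CPM in the others. Without that library 12 rose and 6 fell in CTL, and 6 rose and 3 fell in CKO. Nampt, Ciart, Wee1, Csnk1e, Gsk3b, Timeless, Cipc and Nono remained called in CTL, and Arntl2, Npas2, Nfil3 and Prkaa1 did not. Rorb was still called as higher at 6 h in CTL, at 3.18 ± 0.74 (edgeR, adjusted p = 0.00157). In CKO it was called at 2.27 ± 0.74 (edgeR, adjusted p = 0.0187). Bhlhe41 was called as higher in CTL, close to the threshold (edgeR, adjusted p = 0.0481), and not in CKO.

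None of the 28 differed between genotypes at 0 h or 6 h by edgeR's test, with 6 and 5 at an unadjusted p under 0.05, and none in the difference of responses, with 3. At 0 h, DESeq2 called 2 of the 28, among them Hlf, and edgeR called 1 without the CTL library 4.24 at 6 h.

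**Figure D5:**
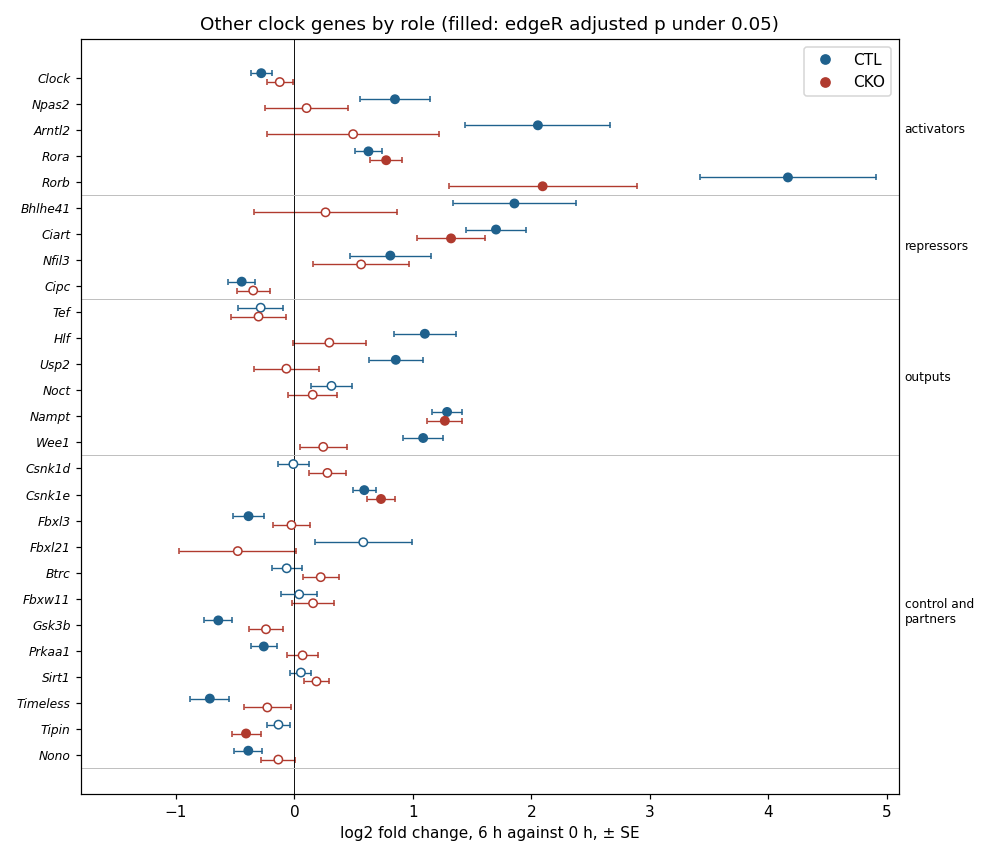
Log2 fold change of 6 h against 0 h with its standard error for the further clock genes reported here, grouped by role, in CTL and CKO; filled points have an adjusted p under 0.05. Nampt, Ciart and Csnk1e are filled on the right in both genotypes, and the 7 genes filled on the left in CTL are open in CKO.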

How the data were processed

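RNA sequencing libraries were stranded and poly(A)-selected, per the labels' protocols. The authors deposited 1 table of gene counts (whole numbers, not normalised) for 20 libraries; 0 columns belonged to other samples. Tools listed in the submitters' processing notes, without roles, are STAR 2.5.2b, Subread 1.5.2 with featureCounts, and Trimmomatic 0.36, on GRCm38; neither the annotation release nor the strand setting was given in the sources used here. Of 49315 IDs, 49056 matched GENCODE M21, which gave symbols and exon lengths.

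Genes were kept by edgeR 4.0.16's filterByExpr (minimum count 10, minimum total 15), which left 28082, and tested in R 4.3.3 with TMM factors and robust quasi-likelihood fits of the 4 groups and the labelled sex over all 20 libraries (15 residual degrees of freedom). P-values are two-sided, adjusted by Benjamini and Hochberg over all tested genes, with a threshold of 0.05. Values after ± are SE for log2 changes and SD for levels. DESeq2 1.42.0 was an alternative, beside RLE factors, other filters, other sex terms, the block below, only the groups compared and each library left out. The scripts were tested on simulated data. The precision of a value rests on the spread between libraries; no counting interval is given.

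Library numbers were checked for pairing on residuals of genes with a mean of at least 1 CPM: same-numbered libraries correlated at 0.303 to 0.605 (CTL and CKO at 0 h, 5 pairs), 0.326 to 0.495 (CTL at 0 h and 6 h, 5 pairs) and 0.187 to 0.488 (CKO at 0 h and 6 h, 3 pairs). Medians were 0.493, 0.468 and 0.232 for same numbers and −0.116, −0.086 and −0.097 for different numbers. The highest values for different numbers, 0.584, 0.374 and 0.257, lay within the same-number ranges. The numbers were taken as pairs on the medians, for the same-number differences and the replicate block. The fit reported has no term for the number, so its standard errors and p-values do not use the pairing. The pairing comes from this check of the numbers in the titles; the labels do not say what the numbers mark.

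The members and all lists were chosen with earlier results of these data known. By the naming rule the text names the 10 members, the genes that overlap them, of the other clock genes the 4 with the smallest adjusted p in each direction in CTL, the 4 closest genes to Dbp and to Bhlhe40, Pcbp2, Csf2, Ifng and Il10. Rorb, Arntl2, Bhlhe41, Npas2, Nfil3, Prkaa1, Clock and Hlf, and the marker genes, were named after their values were seen. The values of 1 of the other clock genes are not reported here, and it is kept in the counts.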

Additional observations from a re-analysis of the deposited data

Results flagged for a closer look

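In each group of 5 or 6 libraries and for each of the 10 genes, the library farthest from the others was set against the range of its group by Dixon's criterion at 95%. Of 30 such sets 6 had a library past it. Chance gives about 1 in 20 for a single set, but the sets share libraries and are not independent, so no excess is read from the 6. In CTL at 6 h the library past the criterion was 4.24 for 4 genes: Per3 at 13 CPM, Cry1 at 33.9 CPM, Nr1d2 at 24.4 CPM and Dbp at 3.62 CPM. In CKO at 0 h, library 5.13 stood apart for Cry1, at 58.4 CPM. In CTL at 0 h, library 5.13 stood apart for Bhlhe40, at 52.9 CPM.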

How the results depend on the processing

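The falls of Dbp and Nr1d1 over 6 h passed in both genotypes under every alternative run, and the rise of Bhlhe40 did in CTL; in CKO it stood at 1.62 with only the groups compared and was not called. The number of members called in CKO, 5, was 3 without the CKO 0 h libraries 4.24 and 5.6 together, and ranged from 3 (without the CKO library 5.6 at 0 h or at 6 h) to 5 when each library was left out; in CTL it ranged from 3 to 6 around 4. With only genes of mean CPM 1 or more fitted, Arntl in CTL stood at 0.21 in place of −0.01. That filter also moved the median CTL change of such genes, from −0.20 to 0.01, so Arntl moved along with the scale of the fit. The cause of these moves was not tested. With the replicate block, in which the library number is a term, the members called were 4 in CTL and 5 in CKO, the same genes. They were 0 in the genotype comparisons and their difference. The block, with or without the sex term, changed no call of a member. Nor did the sex read from Xist change a call of a member. With that sex, 43.3% of all tested genes were called in CKO over 6 h and 0.794% between genotypes at 0 h. The fit reported gave 32.8% and 0.424%. The count of other clock genes called between genotypes at 0 h, 0 in the fit reported, was 1 with the replicate block, 1 with a mean CPM of at least 1, 1 with only the groups compared, 1 without the CTL library 4.24 at 6 h, and 2 by DESeq2. The block without the sex term and the fit without the CTL library 4.24 for these genes were chosen after seeing the data. The members had 75 to 15533 counts per library, and how far depth limits their values was not tested.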
